A study of Mus musculus with 9 samples.

Results

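The genes of cholesterol and fatty acid synthesis were followed in mouse esophageal epithelial organoids, small bodies that esophageal epithelial cells form in culture. The set holds 33 genes, chosen by name with earlier results of these data known, and matched on the gene symbol. Values were deposited for 29 of them, among 8742 genes listed in at least 1 comparison, and 27 have counts in all 9 libraries (6644 genes of the 8742 do). Srebf1 and Srebf2, which encode the transcription factors of the pathway, Acaca and Elovl6 stand in no deposited table, which says nothing of their level.

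Bulk RNA was sequenced from 3 groups of 3 libraries, all untreated and collected on day 7 after seeding. WT organoids were wild type. The label of PN gives Trp53 and Notch1 as knocked out, while PCN stands for a label of Trp53, Cdkn2a and Notch1 knockout, so both edited groups share loss of Trp53 and Notch1 by label. How the knockouts were made, whether a group is 1 clone, the strain and the age of the animals are not given in the sources used. No label says whether replicate libraries are separate cultures, so p-values measure the spread between these libraries, which may be technical.

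Library totals, recovered from counts and FPKM, ran from 14695420 to 20198041 counts. Trp53 was at 118 to 121 CPM (counts per 1000000 counts of the library total) in WT and at 2.27 to 3.96 CPM in the libraries labelled PN or PCN. Notch1 ranged from 213 to 277 CPM in WT, from 140.5 to 154 in PN, and from 66.5 to 76.9 in PCN. Cdkn2a ranged from 6.49 to 10.3 CPM in WT, from 21.5 to 22.7 in PN, and from 62.4 to 70.2 in PCN, so its transcript was highest in the libraries labelled as its knockout. A transcript level does not show whether its protein is made. PN and PCN below name the libraries labelled so.

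Cholesterol is made from acetyl-CoA through mevalonate, the isoprenoid diphosphates, squalene and lanosterol. Fatty acids are made from acetyl-CoA by acetyl-CoA carboxylase and fatty acid synthase, then elongated, desaturated and activated. Sterol regulatory element-binding proteins (SREBPs, from Srebf1 and Srebf2) activate the genes of both routes when membrane sterol is low, and INSIG proteins hold them back. In stratified squamous epithelium, lipids made this way supply the membranes of dividing cells and the lipid layer of the differentiating surface.

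The DNA just before the start of these genes is shown first, since SREBPs act there together with the CCAAT-binding factor NF-Y. Windows of 250 bases before the annotated start were read from RefSeq (GRCm38.p6) for 26 of the 33 genes, 31 windows in all. Fdps, Fdft1, Sqle, Stard4, Scd1, Scd2 and Fads1 had none in that table. The patterns searched, on both strands, were CCAAT, the E-box CACGTG, and TCACNCCAC, a form of the sterol regulatory element. Matches may overlap, as CCAAT and its other strand do in the window of Fasn, and a match is not a measured binding site. CCAAT stood in 22 of the 31 windows (71.0%), against 33.8% of 32851 RefSeq windows of the same length. The E-box stood in 5 windows (16.1%, against 6.02%), and the sterol element in 1 (3.23%, against 1.05%), that of Hmgcs1.

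The 5 windows printed run 5′ to 3′ on the gene's strand, and none overlaps an exon annotated in GENCODE M21. Capitals mark the matches: CCAAT (or ATTGG, its other strand), the E-box or the sterol element. Hmgcs1 is shown for its sterol element, Mvd for its large fall in both edited groups, Sc5d for its E-box, and Fasn and Acly as the fatty acid genes, the first with several CCAAT matches and the second with no match.
Hmgcs1 (chr13:119690101-119690350, plus strand): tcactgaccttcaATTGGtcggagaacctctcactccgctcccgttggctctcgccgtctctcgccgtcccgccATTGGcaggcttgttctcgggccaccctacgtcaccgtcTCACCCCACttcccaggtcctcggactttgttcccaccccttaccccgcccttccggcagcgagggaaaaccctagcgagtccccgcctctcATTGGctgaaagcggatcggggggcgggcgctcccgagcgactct
Mvd (chr8:122443423-122443672, minus strand): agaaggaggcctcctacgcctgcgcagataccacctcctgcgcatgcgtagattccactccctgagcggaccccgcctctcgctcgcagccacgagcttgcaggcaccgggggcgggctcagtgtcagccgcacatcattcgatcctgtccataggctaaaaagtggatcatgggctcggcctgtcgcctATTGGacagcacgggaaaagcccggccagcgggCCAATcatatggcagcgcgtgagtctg
Sc5d (chr9:42264301-42264550, minus strand): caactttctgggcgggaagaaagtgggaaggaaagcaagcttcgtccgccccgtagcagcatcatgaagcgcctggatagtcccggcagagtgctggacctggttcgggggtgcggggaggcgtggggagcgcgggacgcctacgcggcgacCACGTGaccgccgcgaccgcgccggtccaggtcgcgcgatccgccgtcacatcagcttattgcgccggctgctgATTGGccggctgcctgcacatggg
Fasn (chr11:120824548-120824797, minus strand): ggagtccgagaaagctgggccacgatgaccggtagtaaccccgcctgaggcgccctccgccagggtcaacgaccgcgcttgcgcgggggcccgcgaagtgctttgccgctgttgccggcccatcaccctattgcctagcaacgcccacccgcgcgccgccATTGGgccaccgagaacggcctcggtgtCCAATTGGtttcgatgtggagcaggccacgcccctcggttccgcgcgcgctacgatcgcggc
Acly (chr11:100528001-100528250, minus strand): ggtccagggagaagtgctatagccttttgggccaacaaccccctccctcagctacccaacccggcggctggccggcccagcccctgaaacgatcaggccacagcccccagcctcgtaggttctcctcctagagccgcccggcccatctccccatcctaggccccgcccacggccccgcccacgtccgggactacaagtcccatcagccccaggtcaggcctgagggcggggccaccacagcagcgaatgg

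The first question was whether the pathway differed between wild-type and edited organoids. In PN against WT, the authors' deposited table lists 26 of the 33 genes as lower and 0 as higher (authors' adjusted p under 0.05), and 7 are not listed. The share listed lower was 78.8%. Of 17165 genes adjusted over in that comparison, 19.9% were listed lower and 18.2% higher. In PCN against WT, the deposited table again lists 26 as lower, 0 as higher and leaves 7 out, where 20.2% of 17300 genes were listed lower and 18.4% higher. Both comparisons use the same 3 WT libraries, so they are not independent of each other.

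All 8 genes from acetyl-CoA to squalene, and 9 of the 10 from squalene to cholesterol, were listed lower in each of these comparisons. Of the 4 genes of acetyl-CoA supply and fatty acid synthase, 3 were listed lower in PN and 2 in PCN. Of the 7 elongase, desaturase and acyl-CoA synthetase genes, 5 were listed lower in each. Of the 4 regulator and transport genes, 1 was listed lower in PN and 2 in PCN.

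**Figure D1:**
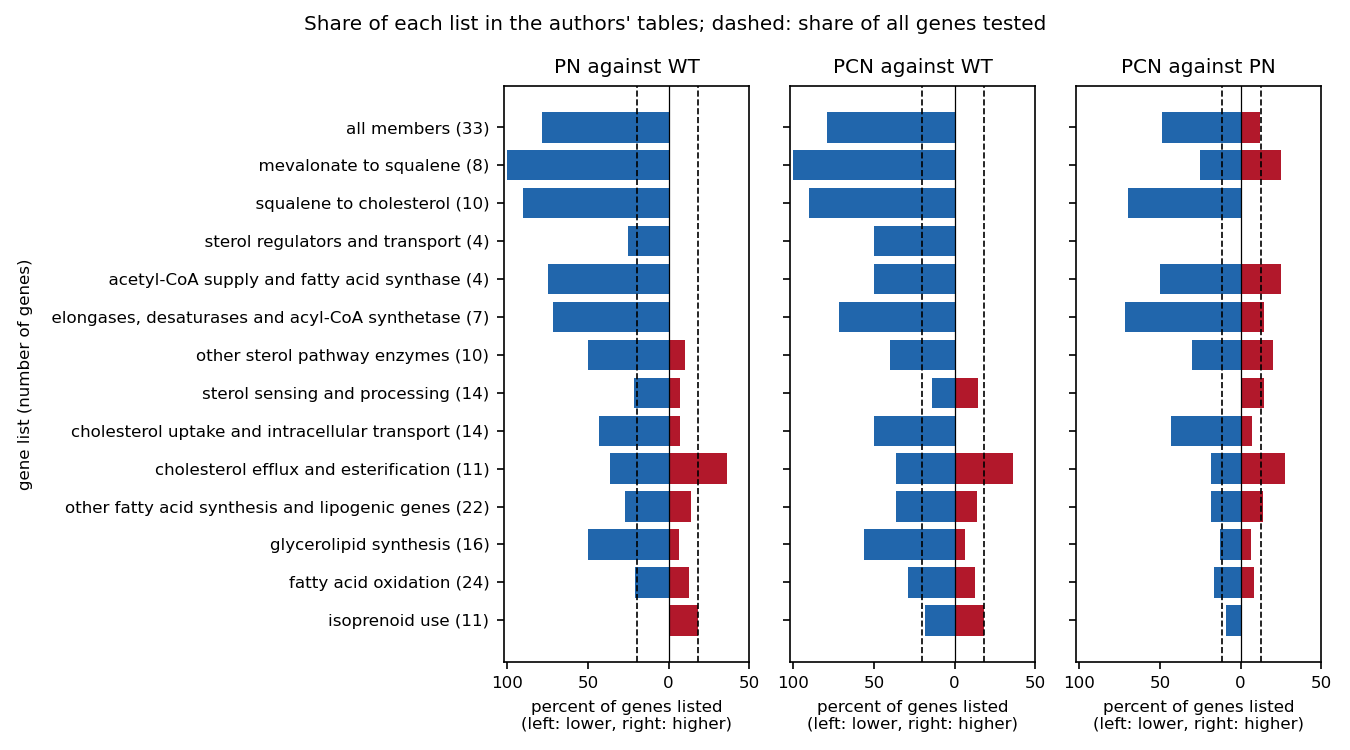
Percent of each gene list that the authors' tables hold as lower (bars to the left, blue) or higher (bars to the right, red) in each of the 3 comparisons (PN with WT, PCN with WT, PCN with PN), with the number of genes of each list in brackets. Dashed lines give the share of all genes tested: in both comparisons with WT the bar of all 33 genes reaches 78.8% lower and 0 higher, against 19.9% and 20.2% lower for all genes.

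The deposited counts were then refitted pair by pair with the quasi-likelihood test of edgeR and a Benjamini-Hochberg adjustment over the genes the authors had adjusted over. Since only listed genes can enter, the refit supplies sizes and errors and is no second line of evidence. It called lower 26 of the 26 genes fitted in PN against WT and 0 higher (0 also in DESeq2 and at an unadjusted p under 0.05, since all fold changes were negative), where 51.2% of the 6295 genes fitted were called lower and 48.0% higher. It called lower 26 of 26, and in the same way 0 higher, in PCN against WT, where 51.3% of 6404 were called lower and 47.3% higher. The median log2 fold change of the fitted genes of the set was -0.75 in PN and -0.96 in PCN, beside -0.26 and -0.28 over all genes fitted. In bulk RNA, fewer cells that express a gene and less RNA per cell cannot be told apart. Genes were listed because they differed in these same libraries. Library ranges that do not overlap, given below, therefore describe the values and add no support. How many of all listed genes have such ranges was not worked out.

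Summed over the 27 genes with counts in every library, the set took 9482 ± 256 CPM in WT (SD, n = 3), 5868 ± 61.8 in PN and 5327 ± 127 in PCN. The stearoyl-CoA desaturase Scd2 alone took 4143 ± 106 CPM in WT. Without Scd2 the sums were 5339 ± 305, 3452 ± 67.1 and 3186 ± 62.1 CPM. With or without it, every library of either edited group lay below every WT library.

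**Figure D2:**
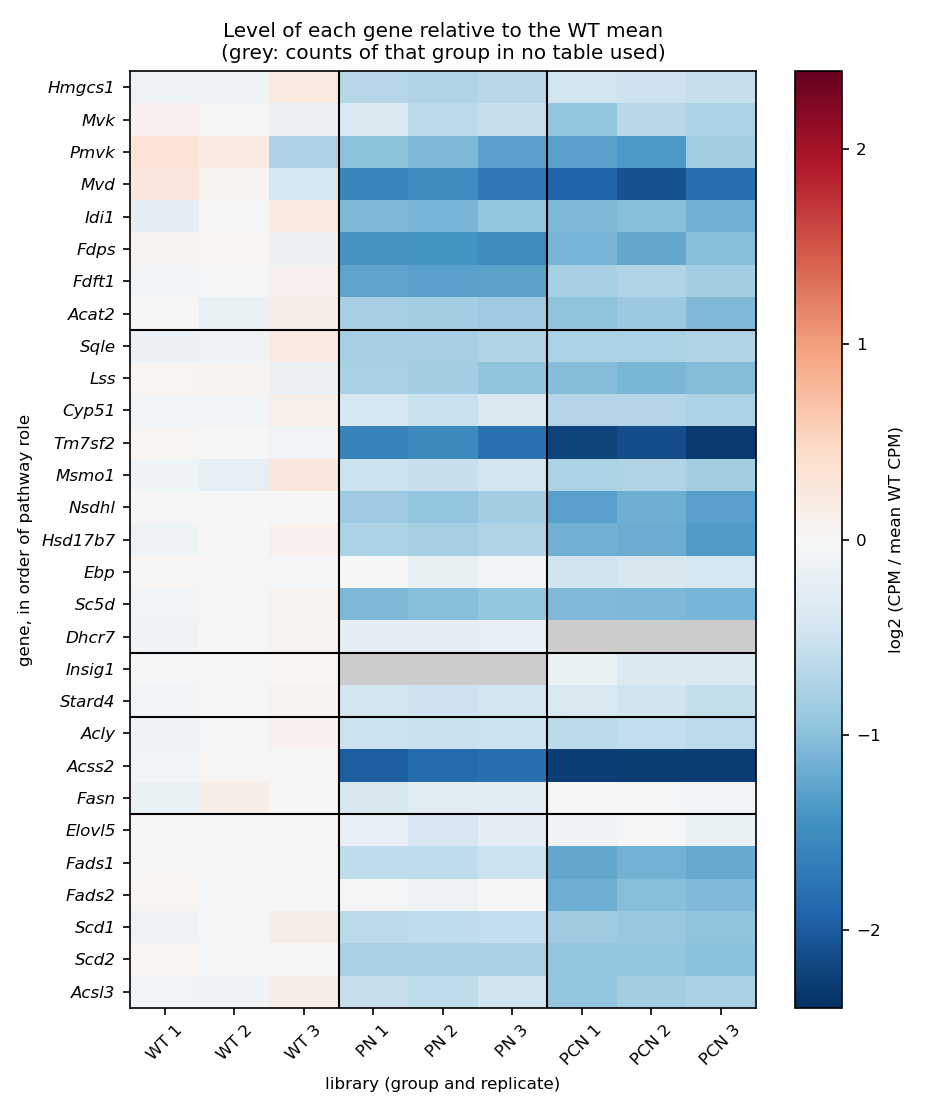
Level of each of the 29 genes with values in each of the 9 libraries, as log2 of its CPM over the WT mean (blue lower, red higher, grey where a group's counts stand in no table used here), with genes in pathway order and black lines between the 5 role groups. Acss2, Tm7sf2 and Mvd are darkest in the edited libraries, and Ebp, Elovl5, Fads2 and Fasn stay near white in 1 of the edited groups.

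The 8 genes of the first role group lead from acetyl-CoA to squalene, with a median log2 fold change of -1.07 in PN and -1.02 in PCN. Acat2 is the cytosolic thiolase that joins acetyl-CoA units, and Hmgcs1 is HMG-CoA synthase of the mevalonate pathway. Mvk, Pmvk and Mvd turn mevalonate into isopentenyl diphosphate, Idi1 isomerises it, Fdps builds farnesyl diphosphate, and Fdft1 is squalene synthase, the first enzyme committed to sterols.

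Mvd (chromosome 8, 122433601 to 122443422, GRCm38 as in the deposited tables) changed most of these. It measured 99.5, 87.3 and 61.9 CPM in WT, 28.1, 29.3 and 25.1 in PN and 21.9, 19.6 and 23.7 in PCN. All 6 edited libraries were under the lowest WT library, which was WT replicate 3. The log2 fold change was -1.58 ± 0.16 (SE) in PN (edgeR adjusted p = 3.7e-05) and -1.93 ± 0.17 in PCN (adjusted p = 8.9e-06).

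Fdps was the least abundant member per gene length, at 3.25 ± 0.253 FPKM in WT (SD, n = 3). Its levels were 14.5, 14.02 and 12.5 CPM in WT, 5.102, 5.06 and 4.81 in PN and 6.34, 5.85 and 6.77 in PCN. It fell by 1.44 ± 0.14 on the log2 scale in PN and by 1.11 ± 0.15 in PCN, and the libraries did not overlap those of WT. Its exons share 197 bases with those of the predicted gene Gm43738 on the same strand, so its count is uncertain.

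Pmvk had the widest relative WT spread of the members, with 41.7, 37.97 and 19.9 CPM in WT, 16.7, 15.8 and 13.4 in PN and 13.4, 12.8 and 18.96 in PCN. WT replicate 3 lay close to PCN replicate 3, though still above it. Pmvk fell by 1.11 ± 0.24 on the log2 scale in PN (edgeR adjusted p = 0.0052) and by 1.14 ± 0.28 in PCN (adjusted p = 0.011). Without WT replicate 3 the same values were -1.37 and -1.40.

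Fdft1 (chromosome 14, 63145150 to 63179578) measured 179, 184 and 202 CPM in WT, 78.1, 76.2 and 76.99 in PN and 108, 114 and 105 in PCN. The 3 groups did not overlap, with PCN between PN and WT. It fell by 1.28 ± 0.07 on the log2 scale in PN and by 0.78 ± 0.08 in PCN. Fdft1 is the only member on chromosome 14, where 93.6% of the genes listed in PN against WT were lower in PN (265 of 283) and 51.2% of those listed in PCN against WT were lower in PCN, against 52.2% over all chromosomes in each. The part of the chromosome in the Fdft1 values was not tested. Its exons also overlap those of Ctsb on the opposite strand over 774 bases, and whether counting used strand is not given in the sources used.

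Idi1 and Acat2 were each lower in both edited groups. Idi1 measured 217, 251 and 303 CPM in WT, 122, 119 and 135 in PN and 122, 127 and 115 in PCN, with log2 fold changes of -1.03 ± 0.11 in PN and -1.08 ± 0.11 in PCN. Acat2 measured 206, 183 and 226 CPM in WT, 118, 115 and 112 in PN and 105, 111 and 97.8 in PCN, with -0.82 ± 0.08 and -0.97 ± 0.09. In both genes all edited libraries lay under all WT libraries. Mouse Acat2 has a close copy in the genome, so reads may be shared.

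Of these 8 genes, Mvk changed least in PN and Hmgcs1 in PCN. Hmgcs1 measured 316, 322 and 399 CPM in WT, 215, 209 and 218 in PN and 253, 244 and 235 in PCN. It fell by 0.68 ± 0.09 on the log2 scale in PN and by 0.50 ± 0.09 in PCN. Mvk measured 76.5, 72.5 and 64.7 CPM in WT, 55.5, 45.2 and 48.8 in PN and 36.98, 44.8 and 42.2 in PCN, and fell by 0.50 ± 0.09 and 0.78 ± 0.10. For both genes the edited libraries did not overlap the WT libraries.

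**Figure D3:**
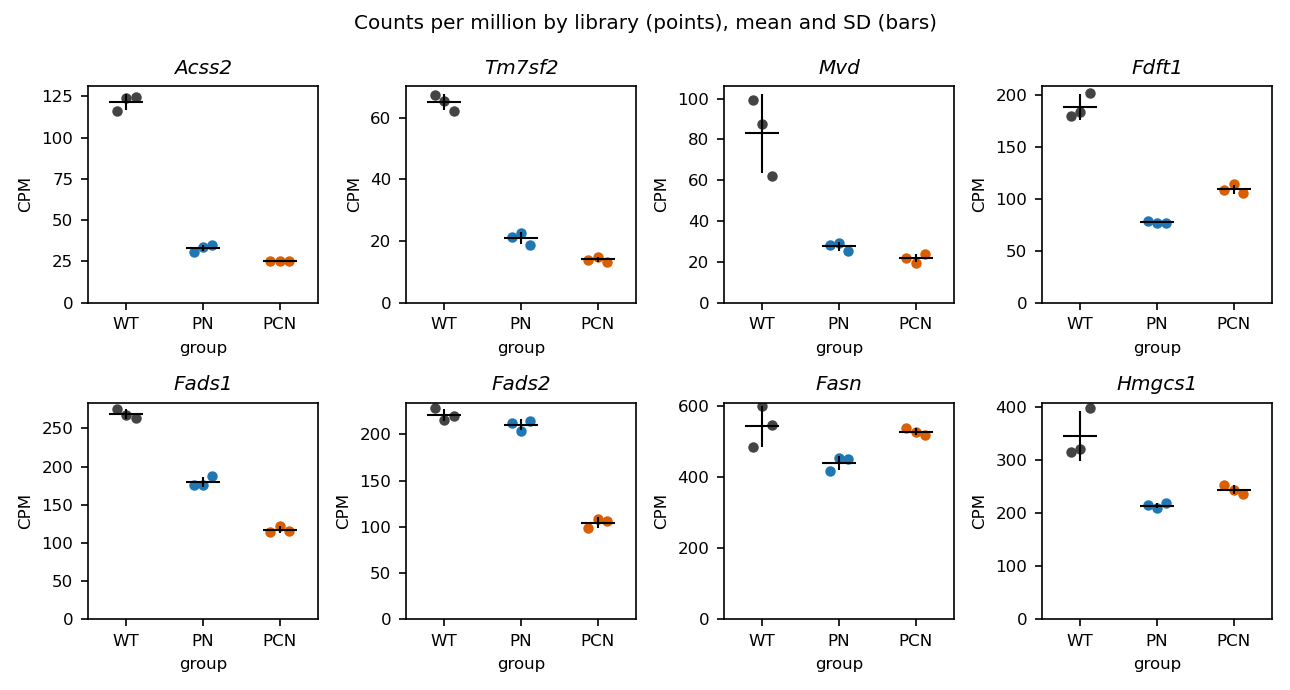
CPM in each library (points) for 8 genes, with the mean and SD of the 3 libraries of a group (black bars), on axes that start at 0. Acss2, Tm7sf2 and Mvd drop in both edited groups, Fads2 is lowest in PCN, and Fdft1, Fasn and Hmgcs1 are lowest in PN.

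The next 10 genes turn squalene into cholesterol, with a median of -0.76 in PN and -1.05 in PCN over the genes fitted. Sqle epoxidises squalene and is a rate-limiting step, and Lss closes the ring to lanosterol. Cyp51 and the sterol reductase Tm7sf2 act in removing the first methyl group of lanosterol, Msmo1, Nsdhl and Hsd17b7 remove the others, and Ebp, Sc5d and Dhcr7 rearrange the double bonds to give cholesterol.

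Tm7sf2 (chromosome 19, 6062821 to 6077197) had the largest change of these 10 genes. It measured 67.2, 65.5 and 62.2 CPM in WT, 21.4, 22.6 and 18.7 in PN and 13.96, 14.9 and 13.2 in PCN. The 3 groups did not overlap, and all libraries labelled PCN were the lowest. The log2 fold change was -1.63 ± 0.09 in PN (edgeR adjusted p = 1.8e-08) and -2.21 ± 0.09 in PCN (adjusted p = 4.6e-10), a level 4.62 times lower than WT. Its exons share 532 bases with Vps51 on the same strand, so part of its count is uncertain.

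The demethylation enzymes Nsdhl and Hsd17b7 followed the same order of groups. Nsdhl measured 102, 102 and 102 CPM in WT, 55.5, 53.1 and 57.9 in PN and 41.5, 45.6 and 41.5 in PCN. Hsd17b7 measured 122, 133 and 142 CPM in WT, 77.8, 76.6 and 79.9 in PN and 59.1, 57.8 and 51.9 in PCN. Neither gene had groups that overlapped. Nsdhl fell by 0.87 ± 0.07 on the log2 scale in PN and 1.25 ± 0.08 in PCN, and Hsd17b7 by 0.75 ± 0.07 and 1.23 ± 0.09. Their partner Msmo1 measured 420.5, 391 and 541 CPM in WT, 315, 308 and 334 in PN and 268, 275 and 253 in PCN, and fell by 0.49 ± 0.11 and 0.76 ± 0.11, with the highest WT level in replicate 3.

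Lss, Sqle and Cyp51 were lower as well. Lss measured 174, 177 and 153 CPM in WT, 98.1, 94.5 and 86.1 in PN and 82.1, 78.7 and 81.9 in PCN, with log2 fold changes of -0.84 ± 0.08 in PN and -1.05 ± 0.08 in PCN. Sqle measured 305, 315 and 385 CPM in WT, 193, 193 and 204 in PN and 199, 197 and 203 in PCN, with -0.76 ± 0.09 and -0.74 ± 0.09, and the edited groups overlapped. Cyp51 measured 288, 287 and 326 CPM in WT, 223, 209 and 232 in PN and 184, 185 and 178 in PCN, with -0.43 ± 0.07 and -0.71 ± 0.08. In none of these did an edited library reach a WT library.

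The last steps differed among themselves. Sc5d measured 196, 205 and 217 CPM in WT, 97.3, 101 and 108 in PN and 98.3, 97.5 and 95.5 in PCN, and fell by 1.00 ± 0.07 on the log2 scale in PN and 1.08 ± 0.07 in PCN. Ebp measured 41.3, 41.1 and 39.1 CPM in WT, 40.8, 35.7 and 38.9 in PN and 29.3, 31.1 and 30.3 in PCN. It is not listed in PN against WT, where PN and WT libraries overlapped, and an added fit of all 9 libraries gave -0.08 ± 0.08 (adjusted p = 0.99). In PCN it fell by 0.42 ± 0.09 (edgeR adjusted p = 0.0015). Dhcr7, the last enzyme of the route, has counts only for WT (156, 165 and 175 CPM) and PN (141, 141 and 144 CPM), with a fall of 0.21 ± 0.07 (adjusted p = 0.024) that missed the threshold in 5 of 11 alternatives, among them without WT replicate 2 (0.061) or any 1 of the PN libraries (0.075 to 0.10).

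Of the regulators and carriers, Insig1 and Stard4 had values. INSIG1 retains the SREBP complex in the endoplasmic reticulum when sterol is plentiful, and its gene is itself an SREBP target. Insig1 has counts for WT (42.7, 43.3 and 45.5 CPM) and PCN (39.3, 34.6 and 34.3 CPM), which did not overlap. It fell by 0.28 ± 0.09 on the log2 scale in PCN (edgeR adjusted p = 0.025), a call lost in 5 of 11 alternatives, among them without WT replicate 2 (0.054), PCN replicate 2 (0.11) or PCN replicate 3 (0.12). Stard4, a cytosolic sterol carrier, measured 192, 199 and 214 CPM in WT, 149, 143 and 146 in PN and 156, 145 and 136 in PCN. It fell by 0.46 ± 0.07 in PN and 0.47 ± 0.08 in PCN, and no edited library reached the WT range.

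The 4 genes that supply acetyl-CoA and build palmitate are Acly, which splits citrate, Acss2, which makes acetyl-CoA from acetate, Acaca and Fasn. Acss2 (chromosome 2, 155517948 to 155585724) had the largest fold change of the whole set against WT. It measured 116, 124 and 125 CPM in WT, 30.9, 33.6 and 34.8 in PN and 25.5, 24.97 and 24.9 in PCN. Its WT and PN libraries were far apart, and its PCN libraries lay under all PN libraries. The log2 fold change was -1.86 ± 0.08 in PN (edgeR adjusted p = 1.1e-09) and -2.27 ± 0.08 in PCN (adjusted p = 5.1e-11), which is 3.64 and 4.82 times lower. Acss2 overlaps exons of Acss2os, Ggt7 and Gss on the opposite strand, by at most 222 bases in an exon.

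Acly measured 491, 512 and 554 CPM in WT, 365, 360.5 and 363 in PN and 332, 343 and 334 in PCN, and fell by 0.51 ± 0.07 on the log2 scale in PN and 0.62 ± 0.07 in PCN, with no overlap with WT. Fasn measured 485, 600.2 and 548 CPM in WT, 417, 453 and 451 in PN and 538, 529 and 519 in PCN. The PN libraries were below all WT libraries, while the PCN libraries lay within the WT range. Fasn fell by 0.30 ± 0.08 in PN (edgeR adjusted p = 0.011), a call lost in 3 of 12 alternatives, among them without WT replicate 2 or PN replicate 1 (0.067 each). It is not listed in PCN against WT, where the fit of all 9 libraries gave -0.04 ± 0.07 (adjusted p = 1.0).

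Of the 7 genes that modify fatty acids, Scd1 and Scd2 encode desaturases that make monounsaturated fatty acids, Fads1 and Fads2 desaturases of polyunsaturated fatty acids, Elovl5 and Elovl6 elongases, and Acsl3 an acyl-CoA synthetase. Scd2 was the most abundant member, with 759.7 ± 19.4 FPKM in WT, 443 ± 1.302 in PN, and 393 ± 12.4 in PCN. Its library values were 4264, 4069 and 4096 CPM in WT, 2412, 2424 and 2412 in PN and 2191, 2167 and 2064 in PCN, and it fell by 0.77 ± 0.06 on the log2 scale in PN and 0.95 ± 0.06 in PCN. Its neighbour Scd1 measured 261, 275 and 311 CPM in WT, 180.2, 184 and 187 in PN and 155, 151 and 144 in PCN, and fell by 0.61 ± 0.07 and 0.91 ± 0.08. For both genes the edited libraries lay clear of the WT range. Scd1 and Scd2 are close paralogs and may share reads.

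Fads1 (chromosome 19, 10182888 to 10196870) and Fads2 (chromosome 19, 10064164 to 10101503) are neighbours, of which PN against WT lists Fads1 and not Fads2. Fads1 measured 276, 267 and 263 CPM in WT, 176, 176 and 187 in PN and 114, 123 and 116 in PCN, and fell by 0.57 ± 0.06 on the log2 scale in PN and 1.19 ± 0.07 in PCN. Fads2 measured 228, 215 and 220.0 CPM in WT, 213, 204 and 215 in PN and 98.3, 109 and 107 in PCN. The highest PN library of Fads2 lay just under the lowest WT library, and the gene is not listed in PN against WT, where the fit of all 9 libraries gave -0.07 ± 0.06 (adjusted p = 0.7). In PCN, Fads2 fell by 1.08 ± 0.07 (edgeR adjusted p = 5.0e-08). Chromosome 19 holds 5 members, Fads1, Fads2, Scd1, Scd2 and Tm7sf2. Of its listed genes, 62.7% were lower in PN and 63.6% in PCN against WT, beside 52.2% over all chromosomes in each. In PCN against PN 62.5% were lower, beside 48.3%. The part of the chromosome in these values was not tested.

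Acsl3 measured 64.8, 64.1 and 74.7 CPM in WT, 45.97, 44.7 and 48.9 in PN and 35.1, 38.5 and 39.6 in PCN, and fell by 0.53 ± 0.08 on the log2 scale in PN and 0.84 ± 0.09 in PCN. Elovl5 measured 115, 116 and 114 CPM in WT, 99.5, 87.3 and 98.1 in PN and 109, 111 and 102 in PCN. It fell by 0.26 ± 0.07 in PN (edgeR adjusted p = 0.011), a call lost in 2 of 12 alternatives, 1 of them without PN replicate 2 (0.087), and its PCN libraries lay below WT by less. It is not listed in PCN against WT, where the fit of all 9 libraries gave -0.10 ± 0.07 (adjusted p = 0.48).

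**Figure D4:**
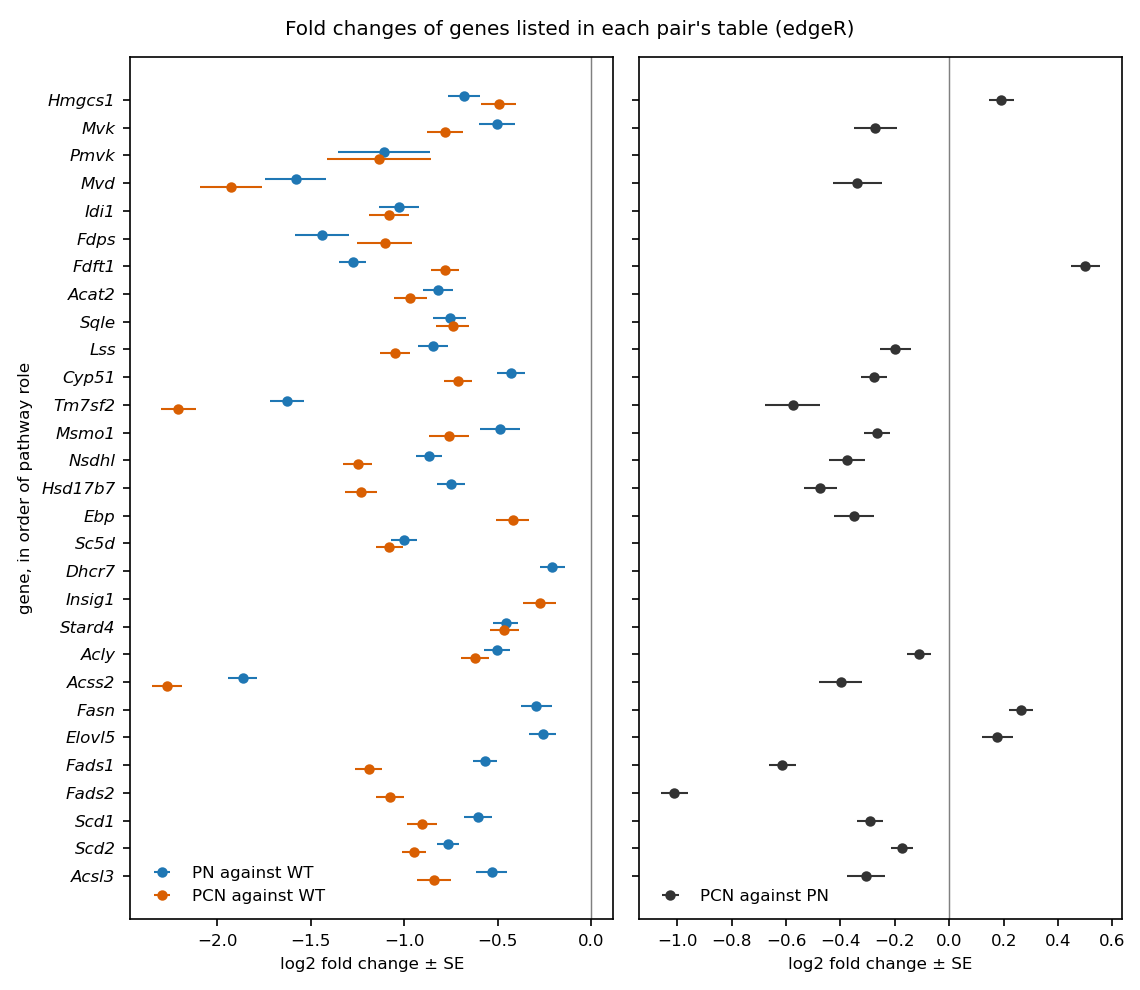
log2 fold change and its standard error (edgeR) of each gene listed in a pair's table, for PN and PCN against WT (left) and PCN against PN (right), with genes in pathway order. All points of the left panel lie below 0, and on the right Hmgcs1, Fdft1, Fasn and Elovl5 lie above 0.

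The second question was whether the organoids labelled with the added Cdkn2a knockout differed from PN. In PCN against PN the authors' deposited table lists 16 of the 33 genes as lower in PCN, 4 as higher, and 13 are not listed. Of 14758 genes adjusted over, 11.8% were listed lower and 12.6% higher, beside 48.5% and 12.1% of the set. The edgeR refit called 15 lower and 4 higher of the 20 fitted, where 47.9% of 3546 genes fitted were called lower and 51.0% higher. Acly was the gene not called (-0.11, adjusted p = 0.059, with DESeq2 0.035). A fit of all 9 libraries together called 11 of these 20 lower and 2 higher. The share called over all genes of that fit was not worked out. Of its 6519 genes 49.2% had a negative log2 fold change, as had 21 of the 27 members in it. The median log2 fold change of the 20 genes was -0.28, beside 0.16 over all genes fitted.

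Fads2 changed most between the edited groups. It fell by 1.01 ± 0.05 on the log2 scale from PN to PCN, a level 2.01 times lower (edgeR adjusted p = 9.0e-16), and Fads1 by 0.61 ± 0.05 (adjusted p = 3.5e-11). No PCN library of either gene reached the PN range. Of the other fatty acid genes, Acss2 fell by 0.40 ± 0.08, Acsl3 by 0.30 ± 0.07, Scd1 by 0.29 ± 0.05 and Scd2 by 0.17 ± 0.04.

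From squalene to cholesterol, 7 of the 10 genes were lower in PCN than in PN and 0 were higher. Tm7sf2 fell by 0.58 ± 0.10 on the log2 scale, Hsd17b7 by 0.47 ± 0.06, Nsdhl by 0.37 ± 0.07 and Ebp by 0.35 ± 0.07. Cyp51 fell by 0.28 ± 0.05, Msmo1 by 0.27 ± 0.05 and Lss by 0.20 ± 0.06. These 7 genes hold the steps from ring closure by Lss to the isomerase Ebp. Sqle and Sc5d, on either side of them, are not listed, and the fit of all 9 libraries gave 0.02 ± 0.08 and -0.07 ± 0.06 (adjusted p = 1.0 and 0.92). In that same fit Lss and Msmo1 were not called either (adjusted p = 0.078 and 0.080). The unbroken run from Lss to Ebp therefore holds for the listing and the pair refit only.

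From acetyl-CoA to squalene, the 4 genes listed split evenly. Mvd fell by 0.34 ± 0.09 on the log2 scale and Mvk by 0.27 ± 0.08, while Fdft1 rose by 0.50 ± 0.05 and Hmgcs1 by 0.19 ± 0.05. Of the genes listed on chromosome 14, 1.80% (6 of 334) were lower in PCN than in PN, against 48.3% over all chromosomes, so the Fdft1 rise went with that of nearly all listed genes of its chromosome, and the part of the chromosome was not tested. The fit of all 9 libraries gave 0.34 ± 0.15 for Fdps (adjusted p = 0.16), -0.14 ± 0.08 for Acat2 (0.33), -0.04 ± 0.10 for Idi1 (1.0), -0.02 ± 0.27 for Pmvk (1.0) and -0.0014 ± 0.0653 for the carrier Stard4 (1.0).

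Fasn and Elovl5 also rose from PN to PCN, by 0.26 ± 0.04 (edgeR adjusted p = 2.4e-05) and 0.18 ± 0.06 (adjusted p = 0.02) on the log2 scale. Both sit near the WT level in PCN, as their values above show. Not all calls between the edited groups held in the 12 alternatives. That of Elovl5 was lost in 5, among them without PN replicate 2 (adjusted p = 0.27), PCN replicate 1 (0.080) or PCN replicate 2 (0.098). That of Mvk was lost without PN replicate 1 or PCN replicate 1 (0.12 each), and that of Lss without PN replicate 1 (0.090) or PN replicate 2 (0.056). Those of Mvk, Lss, Hmgcs1, Msmo1 and Mvd were lost in the fit of all 9 libraries (0.066, 0.078, 0.14, 0.080 and 0.23).

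Compared per gene length, the members spanned a wide range of levels in WT. Scd2 stood at the top, followed by Fads2 at 147 ± 4.300 FPKM, Acly at 98.3 ± 6.13, Acat2 at 80.6 ± 8.36 and Fads1 at 77.8 ± 1.87. Hmgcs1, Idi1 and Msmo1, at 75.2 ± 10.2, 73.4 ± 12.3 and 73.4 ± 12.9 FPKM, did not differ beyond their spread, nor from Acat2 and Fads1. Lss, Acss2 and Tm7sf2 were near the bottom, at 15.6 ± 1.18, 11.96 ± 0.458 and 11.6 ± 0.454 FPKM, above Fdps. FPKM rests on the authors' gene length, which is 10787 bases for Lss and 10163 for Acss2 but 1508 for Fads2. In PCN, Fads2 was at 69.4 ± 3.68 FPKM and Acly at 63.7 ± 1.15.

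**Figure D5:**
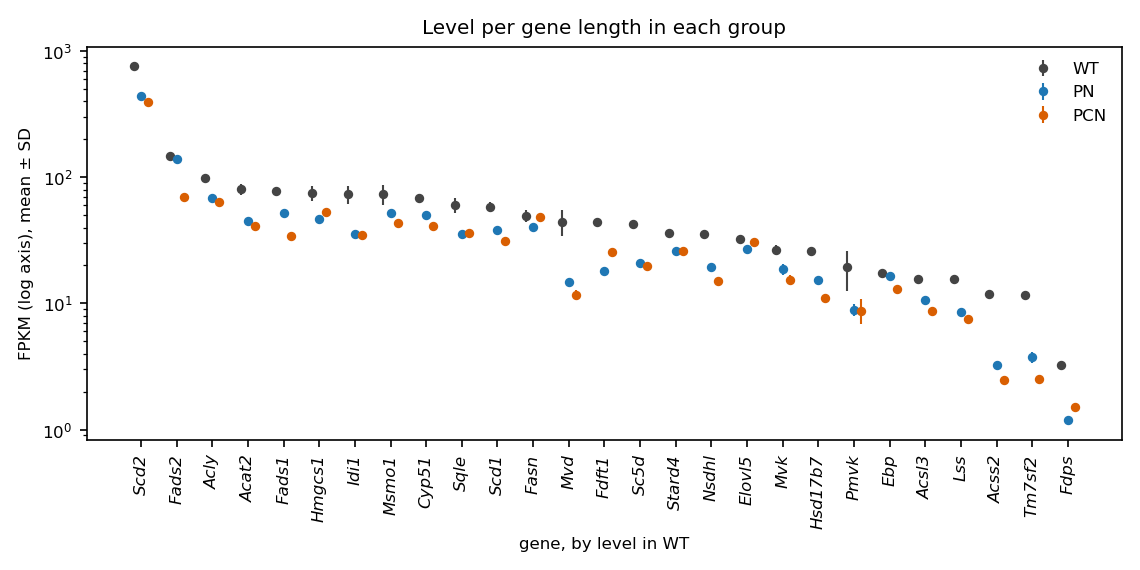
FPKM (log axis) of the 27 genes with values in all groups, as mean and SD of 3 libraries, ordered by the WT level. Scd2 lies above all others in every group, and Fdps lies lowest, at 3.25 ± 0.253 FPKM in WT.

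WT replicate 3 stood at 1 end of the WT range for 24 of the 27 members, highest in 14 and lowest in 10. Over all 6644 genes with counts in every library it was highest in 39.9% and lowest in 39.9%. Hmgcs1, Idi1, Sqle and Msmo1 were highest in it, while Mvk, Pmvk and Mvd were lowest. Leaving it out changed no count of called members against WT, with 26 lower in either comparison.

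Other genes of sterol synthesis, sensing and transport, from lists that hold no member, were read the same way. Here too only listed genes could be called, and a median covers the fitted genes alone. Each count therefore stands beside the share of its list in the deposited tables. Over all genes that share was 19.9% lower and 18.2% higher in PN, and 20.2% and 18.4% in PCN. Of 10 other sterol enzymes, 5 were called lower and 1 higher in PN, and 4 lower and 0 higher in PCN (median log2 fold change -0.47 and -0.76). The deposited tables list 5 of the 10 as lower in PN and 4 in PCN. Por, the reductase that passes electrons to Cyp51 and Sqle, fell by 0.94 ± 0.07 and 1.00 ± 0.07. Erg28, a scaffold of sterol demethylation, fell by 0.61 ± 0.09 and 1.39 ± 0.10; it lies on chromosome 12, where 85.9% of the genes listed in PCN against WT were lower.

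Of 14 genes of sterol sensing and SREBP processing, 3 were called lower and 1 higher in PN, and 2 lower and 2 higher in PCN (median -0.22 and 0.05). With 21.4% and 14.3% listed lower, and 7.14% and 14.3% higher, these shares were at or near those over all genes, or below them. Rxra, the partner of the sterol-sensing LXR receptors, rose by 0.38 ± 0.07 in PN and 0.45 ± 0.08 in PCN. Rnf145, a ubiquitin ligase of the sterol response, rose by 0.45 ± 0.07 in PCN, and Mlxipl, which encodes the glucose-responsive factor ChREBP, fell by 1.33 ± 0.32 from a WT level of 2.14, 3.54 and 2.32 CPM.

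Of 14 genes of cholesterol uptake and transport within the cell, 6 were called lower in each edited group, with 1 higher in PN (median -0.86 and -0.80). The deposited tables list 6 of the 14 as lower in PN (42.9%) and 7 in PCN. The lysosomal lipase Lipa measured 110.3, 112 and 133 CPM in WT, 20.1, 21.2 and 23.6 in PN and 12.5, 14.1 and 13.6 in PCN. It fell by 2.44 ± 0.10 and 3.14 ± 0.10. Gramd1b, a sterol carrier, rose in PN from 1.67, 0.544 and 0.398 to 3.62, 4.18 and 3.595 CPM, by 2.12 ± 0.40, or by 3.00 without WT replicate 1.

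Of 11 genes of cholesterol efflux and esterification, 4 were called lower and 4 higher in each edited group (median -0.07 and 0.05). The shares listed lower and higher were 36.4% each, and of all fitted genes 51.2% and 48.0% were called lower and higher in PN and 51.3% and 47.3% in PCN. Cyp27a1, which oxidises the sterol side chain, fell by 3.32 ± 0.16 in PN and 1.90 ± 0.12 in PCN. Cyp7b1, which hydroxylates oxysterols, measured 6.35, 6.53 and 6.69 CPM in WT, 6.82, 7.83 and 8.67 in PN and 44.5, 49.9 and 45.2 in PCN, and rose by 2.84 ± 0.11 in PCN. Soat2, which esterifies cholesterol, fell by 1.67 ± 0.20 and 2.51 ± 0.24. The cholesterol exporter Abca1, singled out after its values were seen, rose by 0.94 ± 0.19 in PN and 2.12 ± 0.19 in PCN.

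Of 22 other fatty acid synthesis and lipogenic genes, 6 were called lower and 3 higher in PN, and 7 lower and 3 higher in PCN (median -0.49 and -0.42). The share listed lower was 27.3% in PN and 36.4% in PCN, beside 19.9% and 20.2% of all genes. In each, 13.6% was listed higher, beside 18.2% and 18.4% of all genes. Me1, the malic enzyme that makes NADPH for lipid synthesis, measured 107, 113 and 135 CPM in WT, 70.3, 68.6 and 75.8 in PN and 39.6, 39.9 and 34.7 in PCN, and fell by 0.72 ± 0.09 and 1.63 ± 0.10. Fads3, next to Fads2 on chromosome 19, fell by 0.96 ± 0.12 and 1.14 ± 0.12. The desaturase family gene Fads6 rose by 1.68 ± 0.18 and 2.39 ± 0.16, from 3.27, 2.93 and 3.91 CPM in WT.

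The epithelial label was checked against 10 markers of stratified squamous epithelium, all of which have values. Of those fitted, 4 were called lower and 2 higher in PN, and 5 lower and 3 higher in PCN. Of all genes fitted, 51.2% and 48.0% were called lower and higher in PN, and 51.3% and 47.3% in PCN. The deposited tables list 4 of the 10 as lower and 2 as higher in PN, and 6 as lower and 3 as higher in PCN. Over all genes the shares listed lower and higher were 19.9% and 18.2% in PN, and 20.2% and 18.4% in PCN. Krt14 ranged over 1651 to 2193 CPM across WT, 1877 to 2036 across PN and 2337 to 2486 across PCN, and Krt5, not listed against WT, over 6379.7 to 6829 in PN and 5670.3 to 6284 in PCN. Krt15, another basal keratin, rose by 1.29 ± 0.08 in PN and 2.46 ± 0.09 in PCN, and Trp63, the transcription factor of basal cells, rose by 0.53 ± 0.07 in PN and 0.42 ± 0.08 in PCN. The suprabasal keratins Krt13 and Krt4 fell by 2.91 ± 0.06 and 2.18 ± 0.06 in PN, and by 2.50 ± 0.06 and 2.36 ± 0.06 in PCN. The adhesion genes Cdh1 and Perp fell by 0.77 ± 0.08 and 0.84 ± 0.06 in PN and by 0.91 ± 0.08 and 0.70 ± 0.07 in PCN, Epcam fell by 0.34 ± 0.07 in PCN, and Sox2 gave -0.42 there (adjusted p = 0.12). The summed level of the 8 markers with counts in all libraries ran from 32116 to 34135 CPM in WT, from 9574 to 9973 in PN, and from 11381 to 11813 in PCN. That sum leaves out Krt5 and Sox2, and it joins markers that rose, as Krt15 and Trp63, with markers that fell, as Krt13 and Krt4. Both the marker sum and that of the lipid genes were lower in the edited groups than in WT. From PN to PCN the marker sum rose, while the mean lipid sum fell from 5868 to 5327 CPM. The part of the marker changes in the lipid gene values was not tested.

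Markers of other cell types were mostly in no table. None of 8 fibroblast markers and none of 8 sebocyte and hepatocyte markers stand in any, which says nothing of their level. Of 8 adipocyte markers 3 have values, and they differed in direction. Fabp4 measured 3.74, 2.79 and 4.64 CPM in WT, 0.593, 0.5300 and 1.37 in PN and 1.04, 1.32 and 0.698 in PCN, lower in every edited library. Pparg measured 3.07, 3.13 and 3.05 CPM in WT, 9.31, 6.95 and 7.67 in PN and 3.56, 2.64 and 2.63 in PCN, above WT in PN and overlapping it in PCN. Lpl measured 4.07, 4.56 and 4.44 CPM in WT, 8.72, 9.72 and 11.00 in PN and 24.1, 24.6 and 22.9 in PCN, with all groups apart. Their summed level, most of it Lpl in PCN, ran from 10.5 to 12.1 CPM in WT, from 17.2 to 20.04 in PN, and from 26.2 to 28.7 in PCN. Of 8 leukocyte markers only Cd68, which lysosomes of other cells also hold, has values: from 94.01 to 119 CPM in WT, from 23.8 to 26.97 in PN, and from 15.04 to 16.9 in PCN. Of 7 endothelial markers only Esam has values, at 5.63 to 11.7 CPM in WT and 4.55 to 6.03 in the edited libraries. The part of these cell types in the lipid gene values was not tested.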

How the data were processed

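RNA of 9 organoid libraries (WT, PN and PCN, 3 each) was deposited as 3 tables, 1 for every pair of groups, limited to genes whose adjusted p was under 0.05 in the authors' test. The raw counts per gene and library are the authors', per the file headers. A normalized signal, also the authors', is deposited as the count over a size factor of the library within its pair. FPKM was made by the authors from the count, gene length and library total, per the file headers and values. The log2 fold change, p-value and adjusted p-value are the authors', per the file headers. CASAVA, DESeq and GRCm38 (mm10) are named in the submitters' processing notes. For the aligner, the counter and the strand, nothing is given in the sources used.

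Library totals were recovered from counts, FPKM and lengths. The number of genes adjusted over was recovered from the deposited p-values, exactly from 93.1% of genes listed in PN against WT, 93.6% in PCN against WT, and 91.9% in PCN against PN. Each pair was fitted with edgeR 4.0.16 (R 4.3.3; quasi-likelihood, robust, filterByExpr), with the authors' size factors as offsets, since tables of changed genes do not suit TMM. The threshold was an adjusted p of 0.05. Standard errors are log2 fold changes divided by the root of F. The script was tested on simulated data. Values of members outside a pair's table came from 1 fit of all 9 libraries scaled by library totals, and were never counted as called. DESeq2 1.42.0 was an alternative. Counts cover genes listed because they changed, so no count here is independent evidence.

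Members and lists were chosen with earlier results of these data known. All members with values are named, and up to 3 genes of each other list with the largest change against WT among those called. Some genes of these other lists are not reported here. Libraries of PN and WT with the same replicate number deviated together (correlations 0.19, 0.10 and 0.22 over 6208 genes). This meets the rule for pairing, though the labels state no shared origin. The highest correlation, 0.28, was between libraries of different number, WT replicate 1 and PCN replicate 3, so values of this size do not establish pairing. Fitted with the replicate as a block, PN against WT gave the same 26 members lower. Same-numbered PCN libraries did not deviate with either group. Promoter windows are RefSeq's (GRCm38.p6), and overlaps come from GENCODE M21, which holds all 29 identifiers, 24 with the deposited coordinates. Besides the overlaps named above, exons of Hmgcs1, Idi1, Cyp51 and Lss overlap other genes on the opposite strand, by up to 458, 323, 166 and 150 bases. Exons of Acsl3 and Scd2 overlap Utp14b and Mir5114 on the same strand, by up to 140 and 61 bases.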

Additional observations from a re-analysis of the deposited data

How the results depend on the processing

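No member, and no gene named from the other lipid lists, changed direction under the alternatives run, which were not run for the cell type markers. Against WT, leaving out 1 library gave 24 to 26 members lower in PN and 25 to 26 in PCN, always with 0 higher. In PCN against PN it gave 13 to 15 lower and 3 to 4 higher. TMM on the listed genes gave 23 members lower in PN against WT, 25 in PCN against WT, and 16 lower and 3 higher in PCN against PN, with the median of all genes moved by 0.07, 0.07 and -0.03 (log2). DESeq2 gave 26, 26, and 16 lower and 4 higher. Fitting all 9 libraries together gave 25 lower in each comparison with WT, and 11 lower and 2 higher in PCN against PN. The share called over all genes of that fit was not worked out. Against WT no call of a fitted member was lost there, since Dhcr7 and Insig1 lack counts in 1 group and could not enter. The authors' adjusted p under 0.01 left 24 and 25 members lower against WT, and 12 lower and 3 higher in PCN against PN. With a replicate block, PCN against WT gave 25 members lower, Insig1 being lost, and PCN against PN gave 15 lower and 4 higher. The libraries there share only a number. Genes in no table, such as Srebf1 and Srebf2, could not be assessed.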

Other observations

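Genes that store, burn or branch off the same lipids were read from lists without members of the synthesis set. Of 16 glycerolipid genes, 8 were called lower and 1 higher in each edited group (median log2 fold change -1.19 in PN and -1.09 in PCN, over fitted genes only). The deposited tables list 8 of the 16 as lower in PN and 9 in PCN (56.2%), beside 19.9% and 20.2% of all genes. Lpin1, a phosphatidate phosphatase, measured 45.2, 41.03 and 50.9 CPM in WT, 12.8, 12.9 and 14.6 in PN and 9.65, 8.95 and 8.699 in PCN, and fell by 1.75 ± 0.11 on the log2 scale in PN and 2.32 ± 0.12 in PCN. Lpin1 lies on chromosome 12, where 85.9% of genes listed in PCN against WT and 57.4% of those listed in PN against WT were lower. Its relative Lpin3 measured 43.5, 46.2 and 46.04 CPM in WT, 15.6, 14.4 and 15.2 in PN and 17.97, 16.4 and 16.3 in PCN, with falls of 1.57 ± 0.09 and 1.42 ± 0.10. Plin2, which coats lipid droplets, measured 17.8, 16.1 and 18.7 CPM in WT, 3.56, 4.299 and 4.49 in PN and 6.29, 7.002 and 8.11 in PCN, and fell by 2.08 ± 0.15 and 1.30 ± 0.14.

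Of 24 genes of fatty acid oxidation, 5 were called lower and 3 higher in PN, and 7 lower and 3 higher in PCN (median -0.35 and -0.48). The share listed lower, 20.8% in PN and 29.2% in PCN, was near that of all genes in PN. Acadl, a mitochondrial acyl-CoA dehydrogenase, fell by 1.23 ± 0.08 and 1.41 ± 0.08. Cpt1c, a relative of the carnitine palmitoyltransferases, fell by 1.15 ± 0.27 in PCN from 6.55, 7.01 and 3.78 CPM in WT. Cpt1a, which brings fatty acids into mitochondria and was singled out after its values were seen, rose by 0.81 ± 0.10 and 0.90 ± 0.11. Of 11 genes that use isoprenoids, 2 were called higher and 0 lower in PN, and 2 higher and 2 lower in PCN (median 0.68 and -0.01). The share listed higher was 18.2% in each, beside 18.2% and 18.4% of all genes. Pdss1, of the ubiquinone side chain, rose by 1.11 ± 0.17 and 1.16 ± 0.17. Dhdds, of dolichol synthesis, rose by 0.26 ± 0.07 and 0.24 ± 0.08, calls lost in 2 and 4 of 12 alternatives: in PN without PN replicate 1 (adjusted p = 0.090) or PN replicate 3 (0.055), and in PCN without WT replicate 2 (0.065), PCN replicate 1 (0.12) or PCN replicate 2 (0.11), or with the replicate block (0.083). Fntb, the farnesyltransferase subunit on chromosome 12, measured 39.9, 37.2 and 36.4 CPM in WT, 36.2, 36.4 and 37.01 in PN and 15.99, 17.6 and 15.8 in PCN, and fell by 1.20 ± 0.10 in PCN.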
